A study of Mus musculus with 12 samples.

Results

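The 35 genes described here encode proteins that copy DNA in S phase or divide the cell in mitosis. They were taken by symbol from a deposited table of 16942 mouse genes. All 35 were in the table, and all 35 were among the 12329 genes with enough counts to test. By role, 15 belong to S phase and 20 to G2 and mitosis. The libraries were made from small intestine RNA of ICR mice, 3 in each of 4 groups. AOS0 is labelled with AOS at 0 and no busulfan, AOS10 with AOS at 10, B+A0 with B and AOS at 0, and B+A10 with B and AOS at 10, where B is taken as busulfan from the series' design. Busulfan is an alkylating agent that crosslinks DNA. The labels give no expansion of AOS, no unit or route for its dose, no timing and no age of the mice. Nor do they state that each library is a different mouse, and the tests below therefore reflect library-to-library spread, which may be technical.

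The intestinal epithelium renews itself from crypts, where stem cells and their transit-amplifying daughters divide before the progeny differentiate on the villus. In G1, Cdc6 and Cdt1 load the Mcm2 to Mcm7 helicase onto origins, and cyclin E starts S phase. The clamp Pcna then tethers polymerase while ribonucleotide reductase and thymidylate synthase supply nucleotides. Cyclin A and the B cyclins with Cdk1 drive entry into mitosis, the Aurora and Plk1 kinases build the spindle, and Cdc20 with the anaphase-promoting complex ends it by destroying cyclin B. S phase genes are classically controlled by E2F factors, and mitotic genes by the DREAM and B-Myb complexes together with NF-Y. The families therefore peak at different times in a dividing cell.

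Counts per library totalled 13560232 to 16818245. Markers of the tissue were present: all 9 enterocyte, 8 crypt stem cell, 6 Paneth cell and 5 goblet cell markers were tested. None of the 5 smooth muscle markers had enough counts to test, and their summed level was 0.061 to 3.2 counts scaled to library size (CPM), so muscle RNA was near 0. Of 9 markers of B cells and germinal centres, which hold dividing lymphocytes, 3 were tested, the list summed to 11.98 to 22.3 CPM, and Cr2 was at 0 counts in 8 of the 12 libraries. Summed T and natural killer cell markers lay at 164 to 283 CPM in AOS0, 155 to 198 in AOS10, 39.1 to 106 in B+A0 and 96.8 to 269 in B+A10. In bulk tissue, fewer dividing cells and less RNA per dividing cell cannot be told apart. Library B+A10 replicate 3 stood apart by transcript length. Its long transcripts (5 kb or more) were shifted against short ones (under 2 kb) by a log2 value of 0.25, compared with -0.10 to 0.043 in the other 11 libraries. The main values that rest on this library are also given without it.

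Promoters of 28 of the 35 genes were in the RefSeq table (GRCm38.p6). In the 250 bases before the start, on either strand, the NF-Y box CCAAT occurred in 15 of 16 mitotic genes (93.8%) and 8 of 12 S phase genes (66.7%), against 37.5% of 27018 promoters. The CHR element TTTGAA, bound by DREAM, occurred in 7 of 16 mitotic genes (43.8%) and 1 of 12 S phase genes (8.33%), against 18.3%. E2F motifs were searched as TTTGGCG, with the alternative spellings TTTCGCG and also the spelling TTTCCCG, and 1 or more occurred in 4 of 12 S phase genes (33.3%) and 2 of 16 mitotic genes (12.5%), against 5.27%. These are matches of letters, not measured sites, and different motifs did not overlap in these promoters, though paired E2F matches in Mcm5 and Mcm6 and paired CCAAT matches in Ube2c overlapped on opposite strands. The sequences of Ccnb1 and Cdc20, mitotic genes that lay lower with AOS, and of Rrm2, the S phase gene with the smallest p after busulfan, are shown 5′ to 3′ on the gene's strand with the NF-Y box and the CHR, read on that strand or its complement, in capitals. They lie at chr13:100786487-100786736 (minus strand), chr4:118437344-118437593 (minus) and chr12:24708004-24708253 (plus).
Ccnb1: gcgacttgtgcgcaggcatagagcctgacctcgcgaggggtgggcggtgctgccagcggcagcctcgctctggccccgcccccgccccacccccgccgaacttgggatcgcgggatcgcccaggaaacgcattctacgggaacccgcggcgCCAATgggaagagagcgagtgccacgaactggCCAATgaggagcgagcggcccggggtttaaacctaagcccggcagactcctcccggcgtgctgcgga
Cdc20: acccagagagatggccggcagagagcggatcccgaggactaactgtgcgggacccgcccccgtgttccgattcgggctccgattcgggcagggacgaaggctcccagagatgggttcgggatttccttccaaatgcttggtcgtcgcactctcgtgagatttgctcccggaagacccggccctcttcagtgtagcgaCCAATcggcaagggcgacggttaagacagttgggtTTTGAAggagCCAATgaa
Rrm2: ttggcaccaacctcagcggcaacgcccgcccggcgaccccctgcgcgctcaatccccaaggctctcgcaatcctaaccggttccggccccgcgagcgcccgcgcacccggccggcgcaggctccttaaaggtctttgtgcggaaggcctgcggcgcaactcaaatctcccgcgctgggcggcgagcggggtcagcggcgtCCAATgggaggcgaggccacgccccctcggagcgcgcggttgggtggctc
The Ccnb1 window held 2 CCAAT boxes and no CHR in the searched spelling TTTGAA. Other spellings of the CHR were not searched. The Cdc20 window held 2 CCAAT boxes with a CHR between them, and the Rrm2 window held 1 CCAAT box.

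The genes were well expressed for a bulk tissue. Their median level was 26.5 FPKM (a level corrected for library size and transcript length), against 10.4 over all tested genes. The most abundant was Ube2c, the ubiquitin-conjugating enzyme of the anaphase-promoting complex, at a mean of 216.0 FPKM over the 12 libraries. Pcna followed at 139.8 FPKM, then Birc5 (survivin, of the chromosomal passenger complex) at 88.5 and Cdc20 at 62.2. The lowest were Cenpf at 2.09, Ccne2 at 3.05, Cenpe at 3.20 and the checkpoint kinase Bub1 at 3.91 FPKM. Bora, the cofactor through which Aurka activates Plk1, was also low at 7.54 FPKM. Replicates differed as much as for other genes, with a median pooled SD of 0.17 on the log2 CPM scale against 0.16 over all tested genes. Tyms (SD 0.083) and Pcna (0.11) were tightest, and Ccne2 (0.39), Cenpe (0.34), Mki67 and Cenpf (both 0.30) were loosest.

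**Figure D1:**
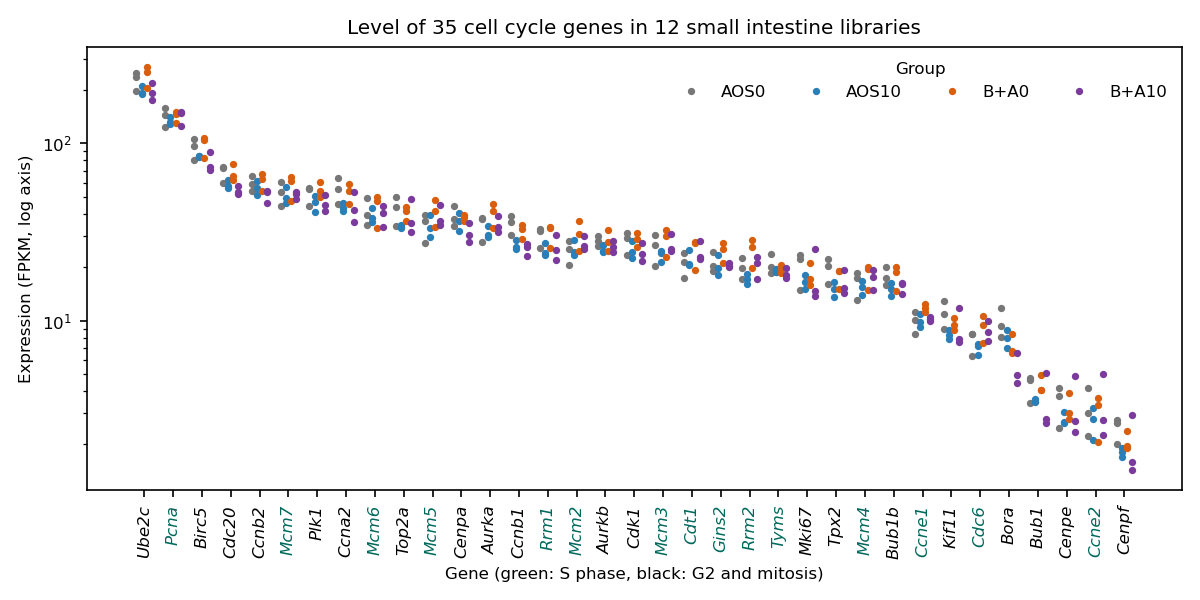
Level of each of the 35 genes (FPKM, log axis) in each of the 12 libraries, ordered by mean level, with points coloured by group and S phase gene names in green. Points of a gene lie within 1.22-fold (Pcna) of each other in CPM at the tightest, while gene means run from 2.09 FPKM for Cenpf to 216.0 for Ube2c.

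The familiar proliferation markers showed no difference between groups that passed the test. Mki67, which coats mitotic chromosomes, was at 208, 204 and 137 CPM in AOS0, 153, 168 and 140 in AOS10, 149, 189 and 161 in B+A0, and 130, 140 and 229 in B+A10. All 4 groups overlapped, and both the lowest and the highest library belonged to B+A10. Pcna varied 1.22-fold over all 12 libraries, from 140 CPM in AOS0 replicate 3 to 170.4 in AOS0 replicate 1. Its 95% interval for B+A0 against AOS0 was -0.15 to 0.25 on the log2 scale, around an estimate of 0.05. Top2a, which untangles DNA at mitosis, was at 241, 218 and 175 CPM in AOS0, 172, 177 and 169.7 in AOS10, 192, 205 and 228 in B+A0, and 184, 165 and 241 in B+A10. The 3 AOS10 libraries were below AOS0 replicates 1 and 2 for Top2a, and AOS0 replicate 3, at 175 CPM, lay inside their range. The mitotic genes with long transcripts were high in B+A10 replicate 3: Mki67, Top2a, Cenpe and Cenpf stood a median of 0.50 above their means on the log2 scale, while the 10 members under 2 kb stood at -0.064. Without that library the Mki67 difference between B+A10 and AOS0 was -0.44 in place of -0.14.

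Bora was the one gene of the 35 that passed the test in any comparison of 2 groups. Its 3 AOS0 libraries were at 35.6, 30.03 and 28.6 CPM, and the 3 AOS10 libraries at 25.1, 27.6 and 23.8. The B+A0 libraries were at 22.8, 25.8 and 21.8 CPM, and the B+A10 libraries at 16.7, 16.2 and 23.1. AOS0 lay above all 9 other libraries, and the group means went from 31.4 ± 3.69 (SD, n = 3) through 25.5 ± 1.91 and 23.5 ± 2.09 to 18.7 ± 3.82. B+A10 thus had 59.5% of the AOS0 mean, AOS10 81.3% and B+A0 74.8%. Bora (gene ID 77744; chromosome 14, 99046377 to 99074540 in GRCm38.p6) fell in B+A10 against AOS0 by 0.75 on the log2 scale (SE 0.14, 95% interval -1.06 to -0.44, adjusted p = 0.0279 in edgeR's quasi-likelihood test with Benjamini-Hochberg adjustment over all 12329 genes). In that comparison 0.957% of all tested genes were called in either direction and 0.203% were called lower. The 35 genes were chosen with earlier results of these data known, so a call among them beside these shares is a description only. The single steps did not pass: log2 values were -0.42 for B+A0 against AOS0 (edgeR adjusted p = 0.102), -0.30 for AOS10 against AOS0 (0.799), -0.33 for B+A10 against B+A0 (0.486) and -0.45 for B+A10 against AOS10 (0.290). The interaction of Bora was -0.03 (95% interval -0.46 to 0.40), so the interval allows a departure from additivity in either direction. The call was lost when any of 5 of the 6 libraries was left out, with adjusted p up to 0.144, and it held at 0.0071 without B+A10 replicate 3, the highest Bora library of its group. It was also lost in a fit of only these groups (adjusted p = 0.120). Without B+A10 replicate 3, Bora was at -0.51 in B+A10 against B+A0 (edgeR adjusted p = 0.0881), at -0.63 in B+A10 against AOS10 (0.0671) and at -0.21 for the interaction (0.775).

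**Figure D2:**
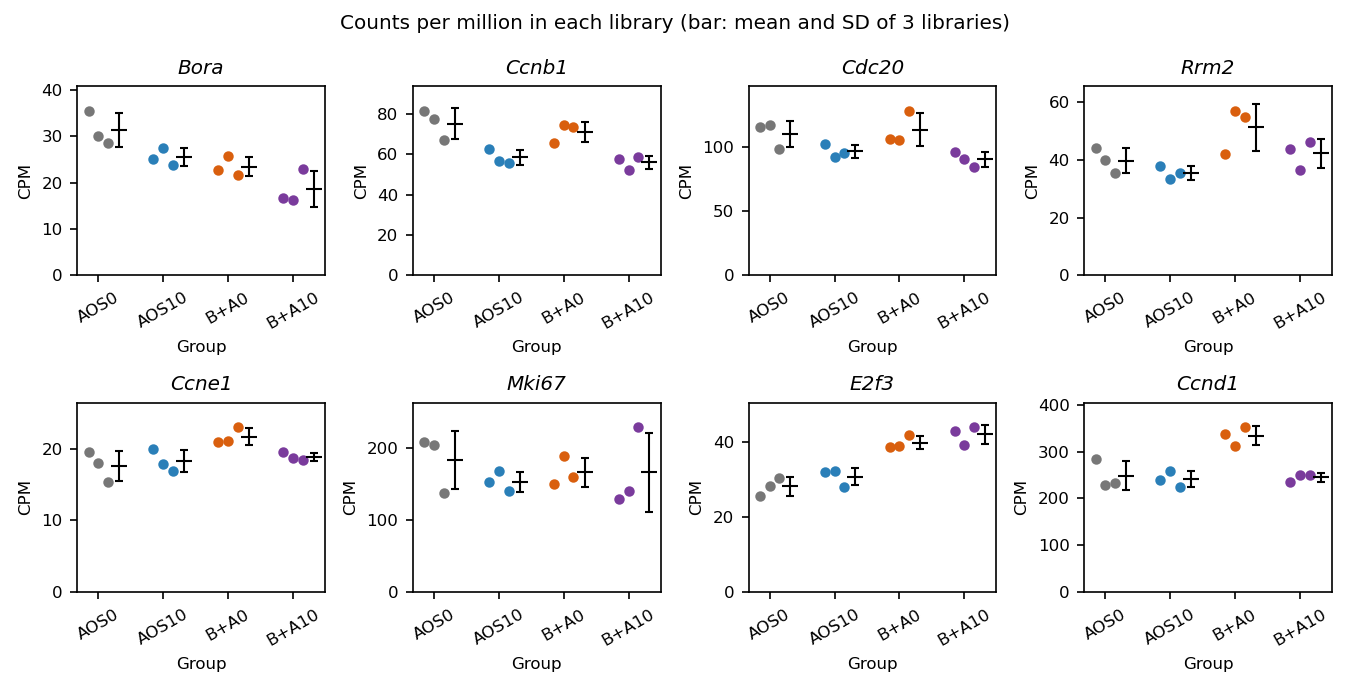
Normalised counts (CPM, axes from 0) of members and other cell cycle genes named in the text, 1 point per library in 4 groups of 3, with the group mean and SD beside them. Bora steps down from 31.4 in AOS0 to 18.7 in B+A10, and Ccnb1 is lower in both groups given AOS.

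Busulfan without AOS (B+A0 against AOS0) left all 35 genes short of the threshold, while 3.64% of all tested genes were called. Of the 35, 3 were higher and 1 lower at an unadjusted p under 0.05, against 22.1% of all genes in either direction, and neither DESeq2 nor limma called any of the 35. The S phase genes lay on the higher side: 13 of 15 were above 0 with a median log2 value of 0.19, and all 9 origin and helicase genes (Cdc6, Cdt1, Mcm2 to Mcm7 and Gins2) were above 0 with a median of 0.26. The mitotic genes split 10 and 10 around a median of 0.015, and 48.8% of all genes were above 0. Rrm2, the small subunit of ribonucleotide reductase, was at 44.0, 39.8 and 35.2 CPM in AOS0 and 41.9, 56.9 and 54.7 in B+A0. The groups overlapped through B+A0 replicate 1, and the log2 difference was 0.37 (SE 0.13, edgeR adjusted p = 0.120). Ccne1, cyclin E1, was at 19.6, 17.97 and 15.4 CPM in AOS0 and 21.0, 21.1 and 23.0 in B+A0. Its groups did not overlap, with a log2 difference of 0.30 (SE 0.11, adjusted p = 0.128). Groups did not overlap for Ccne1 (higher) and Bora (lower) among the 35, against 14.4% of all genes higher and 14.6% lower.

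The helicase genes in B+A0 were not uniform across its 3 libraries. Mcm2 was at 82.3, 97.5 and 120 CPM in B+A0 and at 87.6, 80.7 and 66.6 in AOS0, a log2 difference of 0.35 (SE 0.14, edgeR adjusted p = 0.167). B+A0 replicate 3 was the highest of the 12 libraries for all 6 Mcm genes, and AOS0 replicate 3 the lowest for 5 of 6. Without B+A0 replicate 1, Mcm2 and Rrm2 passed the test. In that fit 1099 of all genes were called, against 449 with every library. Without AOS0 replicate 3 the median over the 35 genes went from 0.078 to -0.0085. B+A0 replicates 2 and 3 also had the lowest summed enterocyte markers, 9400 and 9149 CPM, against 16441 in B+A0 replicate 1 and 12164 to 13960 in AOS0. All 11 T and natural killer cell markers tested were below 0 in B+A0, with a list median of -1.72, and 7 were called lower. All 6 Paneth cell markers were above 0 (median 0.58), all 5 goblet cell markers were below 0 (median -0.25), and 8 of 9 enterocyte markers were below 0 (median -0.33), with 0 called in each list. The 8 crypt stem cell markers had a median of -0.057. Summed Paneth cell markers were at 7228 CPM in B+A0 replicate 3 and 3279 in AOS0 replicate 3. The part of these cell types in the S phase values was not tested.

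AOS without busulfan (AOS10 against AOS0) left all 35 genes short of the threshold, and edgeR called 0% of all tested genes. At an unadjusted p under 0.05, 3 of the 35 were lower and 0 higher, against 3.03% of all genes lower, and DESeq2 and limma called 0 of the 35. All 20 mitotic genes were below 0 with a median log2 value of -0.22. Of the 15 S phase genes, 11 were below 0 with a median of -0.043, and over all genes 52.2% were below 0 with a median of -0.0087. Ccnb1, cyclin B1, was at 81.5, 77.2 and 66.8 CPM in AOS0 and 62.8, 56.8 and 55.6 in AOS10. The groups did not overlap, and the log2 difference was -0.36 (SE 0.092, edgeR adjusted p = 0.316). The spindle genes Kif11, a motor that separates the poles, and Tpx2, which activates Aurka on microtubules, were at -0.35 (adjusted p = 0.787) and -0.32 (0.755). AOS10 lay wholly below AOS0 for 4 of the 35 (Ccnb1, Bora, Cenpf and Kif11), against 9.67% of all genes. The 95% interval stayed within 2-fold for all 35 genes and within 1.5-fold for 26 of them. Without AOS0 replicate 1 the median over the 35 genes went from -0.13 to -0.061, and without AOS0 replicate 3 to -0.22. All 11 T and natural killer cell markers tested were below 0 (median -0.47), and 6 of 9 enterocyte markers were above 0 (median 0.088). Paneth cell markers were below 0 for 4 of 6 (median -0.090) and goblet cell markers above 0 for 4 of 5 (median 0.082). In each of these lists 0 were called, and their part in the values of the 35 genes was not tested.

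With AOS given beside busulfan (B+A10 against B+A0), most of the genes were again below 0, in libraries that the comparison without busulfan did not use. No gene of the 35 passed, and edgeR called 0% of all genes. At an unadjusted p under 0.05, 9 of the 35 were lower and 0 higher, against 3.93% of all genes lower, and DESeq2 and limma called 0 of the 35. Here 19 of 20 mitotic genes were below 0 with a median of -0.24, and 14 of 15 S phase genes with a median of -0.14, against 48.2% of all genes. Ccnb1 was at 65.4, 74.4 and 73.2 CPM in B+A0 and 57.4, 52.3 and 58.4 in B+A10, a log2 difference of -0.34 (SE 0.092, edgeR adjusted p = 0.284). Cdc20, the activator of the anaphase-promoting complex, was at 107, 106 and 129 CPM in B+A0 and 96.5, 91.2 and 84.6 in B+A10, a log2 difference of -0.33 (SE 0.099, adjusted p = 0.323). Neither gene's groups overlapped. Birc5 was at -0.32 (adjusted p = 0.389). B+A10 lay wholly below B+A0 for 6 of the 35 (Ccnb1, Ccnb2, Cdc20, Cenpa, Ccne1 and Gins2), against 5.41% of all genes. The enterocyte markers lay on the other side, with 9 of 9 above 0 at a median of 0.37 and 0 called. All 11 T and natural killer cell markers were also above 0 (median 1.12), and all 6 Paneth cell markers were below 0 (median -0.25), with 0 called in either list. The part of these cell types in the values of the 35 genes was not tested. Without B+A0 replicate 3 the median over the 35 genes went from -0.18 to -0.083, and over all 6 ways of leaving out 1 library its lowest value was -0.28. Over the comparisons with and without busulfan, 29 of the 35 genes (82.9%) were below 0 in both, against 26.1% of all tested genes. The genes tended to shift together within a library, so these directions are not 35 separate observations.

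**Figure D3:**
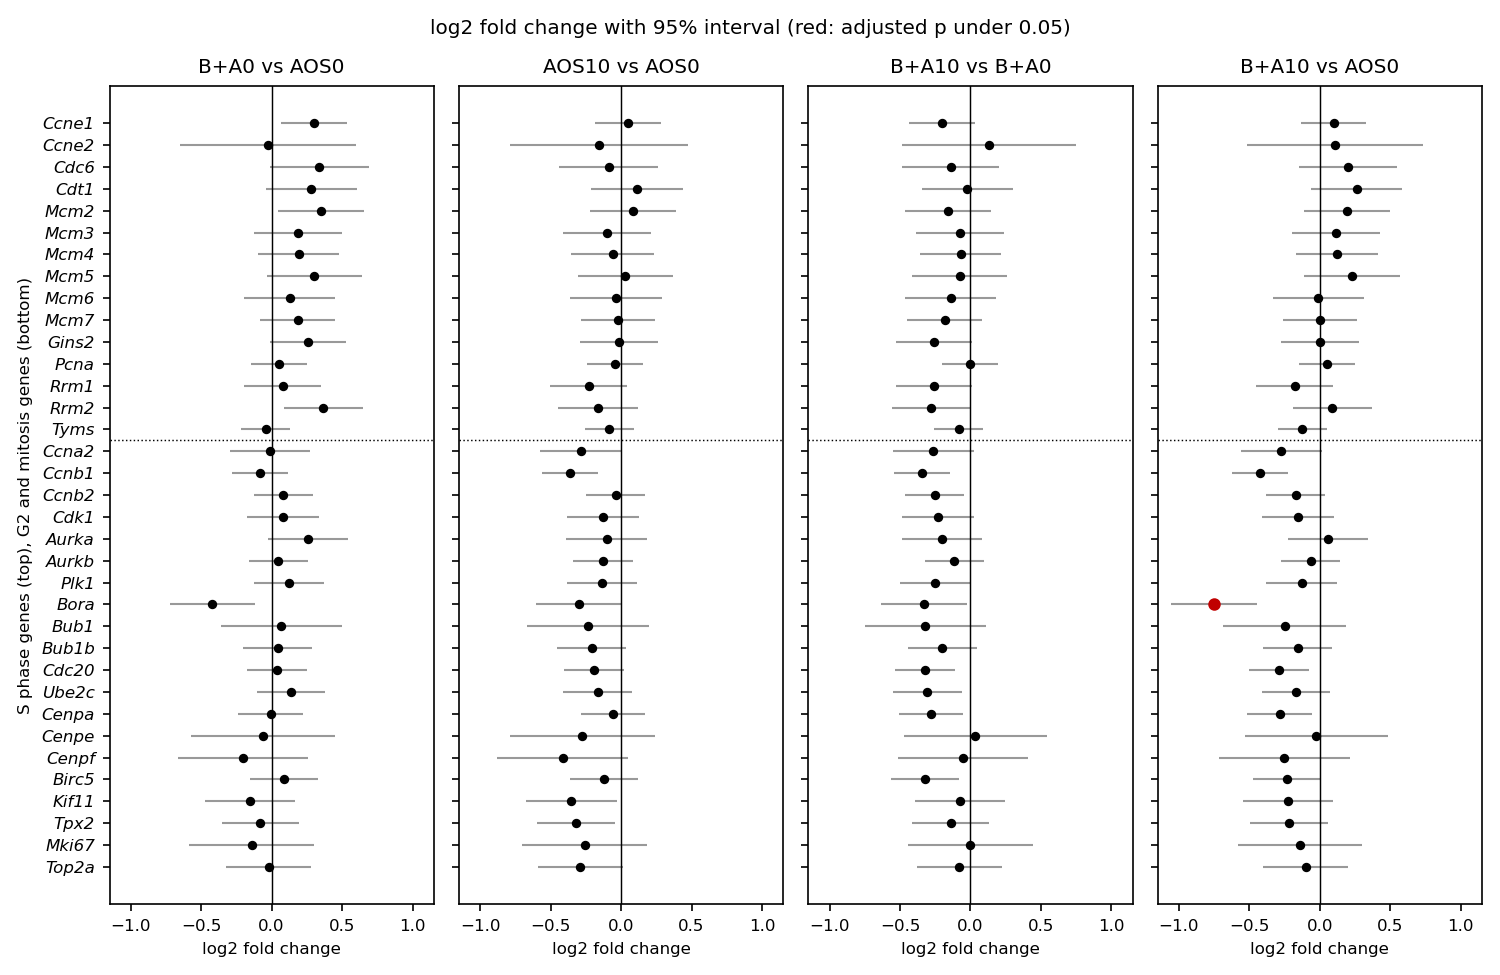
log2 fold change of each of the 35 genes with its 95% interval in 4 comparisons, S phase genes above the dotted line and mitotic genes below it. The mitotic genes lie left of 0 for all 20 in AOS10 against AOS0 and for 19 of 20 in B+A10 against B+A0, the helicase genes lie right of 0 in B+A0 against AOS0, and Bora (red) is the one gene past the threshold.

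Averaging the AOS difference over both busulfan states sets 6 libraries against 6. This comparison and its busulfan counterpart were added after the data were seen, and they use the same libraries as those above. No gene of the 35 passed (edgeR called 0% of all genes), 12 were lower and 0 higher at an unadjusted p under 0.05 against 4.13% of all genes lower, limma called 0 of the 35 and DESeq2 called Ccnb1. Over all genes DESeq2 called 92. All 20 mitotic genes were below 0 with a median of -0.21, as were 14 of 15 S phase genes with a median of -0.084 and 50.3% of all genes. For Ccnb1 the highest library with AOS, at 62.8 CPM, was below the lowest without it, at 65.4. Its averaged log2 difference was -0.35 (SE 0.065, 95% interval -0.49 to -0.21, edgeR adjusted p = 0.123), and no other gene of the 35 had groups that did not overlap, against 0.251% of all genes lower. Ccnb1 passed in edgeR when B+A0 replicate 1 or B+A10 replicate 3 was left out, and without the latter Bora passed too (-0.41, adjusted p = 0.0476). Over all genes, 102 were called without B+A0 replicate 1, the most of the 12 such fits, against 0 with every library. With every library, Cdc20 came next after Ccnb1 at -0.26 (edgeR adjusted p = 0.285), then Bora at -0.31 (0.371). The 9 enterocyte markers were all above 0 in this average, with a median of 0.20 and 0 called, and their part was not tested.

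Averaging the busulfan difference over both AOS states gave 1 call among the 35, against 6.03% of all tested genes. Bora fell by 0.44 (SE 0.099, 95% interval -0.65 to -0.22, edgeR adjusted p = 0.0274), with overlap between the 6 libraries of each side. The call was lost without any of 7 of the 12 libraries, with adjusted p up to 0.0817. Rrm2 was at 0.31 (adjusted p = 0.0643) and Cdc6, which loads the helicase, at 0.31 (0.117). Of the S phase genes 14 of 15 were above 0 with a median of 0.17 (50.1% of all genes were), and the 20 mitotic genes had a median of 0.0054. Rrm2 passed without B+A0 replicate 1, where Cdc6 also passed and 1395 of all genes were called, against 743 with every library. Rrm2 also passed without B+A10 replicate 2. In this average all 6 Paneth cell markers were above 0 (median 0.45, 0 called) and all 5 goblet cell markers below 0 (median -0.28, 1 called lower). All 11 T and natural killer cell markers were below 0 (median -0.89, 5 called lower), as were 8 of 9 enterocyte markers (median -0.21, 0 called). The part of these cell types was not tested.

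Busulfan beside AOS (B+A10 against AOS10) left all 35 genes short of the threshold, while 0.162% of all genes were called. At an unadjusted p under 0.05, 2 were lower (Bora and Cenpa) and 0 higher, against 10.2% of all genes in either direction, and DESeq2 and limma called 0. Of the S phase genes, 14 of 15 were above 0 with a median of 0.11 (50.9% of all genes were above 0), and the mitotic genes split 11 above and 9 below. Rrm2 was at 0.25 (edgeR adjusted p = 0.567) and Cenpa, the centromeric histone, at -0.23 (0.488). Groups did not overlap for Mcm3 (higher, 0.21) and Bora (lower), against 7.97% of all genes higher and 6.92% lower.

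Against AOS0, B+A10 had the S phase and mitotic genes on opposite sides. The S phase genes were above 0 for 12 of 15 with a median of 0.096, and the mitotic genes below 0 for 19 of 20 with a median of -0.20, while all genes split 50.0% above and 50.0% below. Beside Bora, Ccnb1 came nearest the threshold at -0.42 (SE 0.092, edgeR adjusted p = 0.0511). It passed in DESeq2 (adjusted p = 0.00613) and with a filter of at least 1 CPM in 3 libraries (0.0486). Over all genes those fits called 459 and 132. Cdc20 was at -0.29 (adjusted p = 0.174) and Cenpa at -0.29 (0.206). B+A10 lay wholly below AOS0 for these 4, against 8.60% of all genes. Without B+A10 replicate 3, 5 genes were called lower: Bora, Bub1, Ccnb1, Cenpf and Kif11. In that fit 763 of all genes were called in either direction, against 118 with every library. Cenpf, at 10.3 kb, has the longest transcript of the 35.

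No interaction of busulfan and AOS was called among the 35 genes or among all genes (0% in edgeR). At an unadjusted p under 0.05 there were 0 of the 35, against 6.85% of all genes. DESeq2 and limma called 0 of the 35. The smallest p belonged to Ccne1 at -0.25 (edgeR adjusted p = 0.763), Ccnb2 (cyclin B2) at -0.22 (0.775) and Cenpa at -0.22 (0.780). For 32 of the 35 genes the 95% interval stayed within 2-fold. The median was -0.051 over the 35 and 0.012 over all genes, and leaving out a single library moved the former between -0.14 and 0.056.

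**Figure D4:**
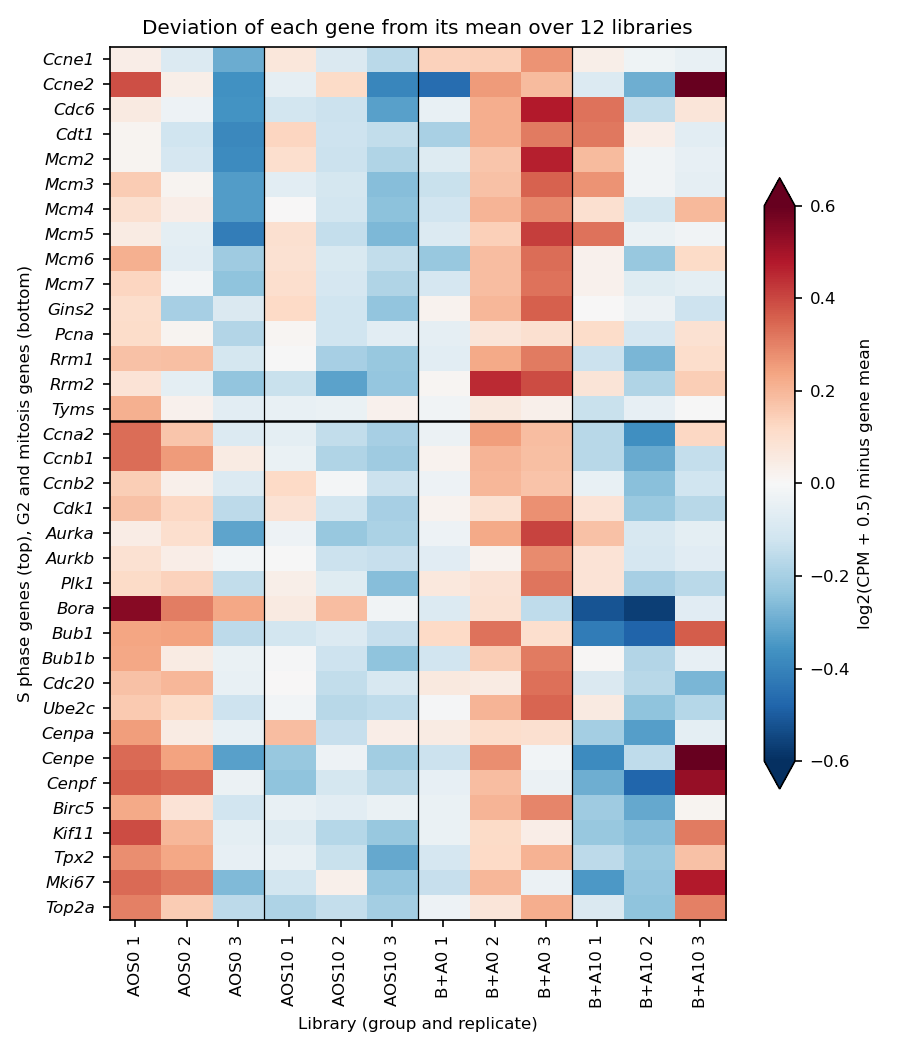
log2 CPM of the 35 genes in each of the 12 libraries, relative to each gene's mean over all libraries (colour scale, saturated beyond 0.6 either way), with S phase genes above mitotic genes. Whole columns tend to share a colour, as in AOS0 replicate 1 and B+A0 replicate 2, where all 35 genes are above their means.

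Much of the variation was shared by the whole set within a library. All 35 genes were above their own mean in AOS0 replicate 1 and in B+A0 replicate 2, and 1 of 35 was in B+A10 replicate 2. B+A0 replicate 3 was the highest library for 18 of the 35, and B+A10 replicate 2 was the lowest for 13, of which 12 are mitotic. B+A10 replicate 2 also had the highest summed enterocyte markers at 17999 CPM, and B+A0 replicate 3 the lowest at 9149. By group means, B+A0 was highest for 23 genes, AOS0 for 11 and B+A10 for 1, while AOS10 was lowest for 21, B+A10 for 10 and AOS0 for 4. AOS10 was the highest group for 0 genes and B+A0 the lowest for 0.

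A difference taken within a library removes any factor that scales all its genes alike. The median log2 deviation of the 15 S phase genes minus that of the 20 mitotic genes was -0.14, -0.19 and -0.22 in AOS0. It was 0.048, 0.010 and -0.031 in AOS10, and -0.042, 0.018 and 0.13 in B+A0. In B+A10 it was 0.24, 0.17 and 0.048. AOS0 therefore had the lowest ratio of S phase to mitotic transcripts in every library, below all 9 libraries of the treated groups, and the treated groups overlapped one another. The deposited FPKM values gave -0.12, -0.17 and -0.20 in AOS0, again below all 9. Among other cell cycle genes (48 of S phase and 70 of mitosis) AOS0 was at -0.064, -0.085 and -0.061, below 8 of the other 9. The exception was B+A10 replicate 3 at -0.096, the library with shifted long transcripts. Of the 8, B+A0 replicate 1 came nearest to AOS0, at -0.052. This balance was worked out after the group values were known and is given as a description, without a test.

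**Figure D5:**
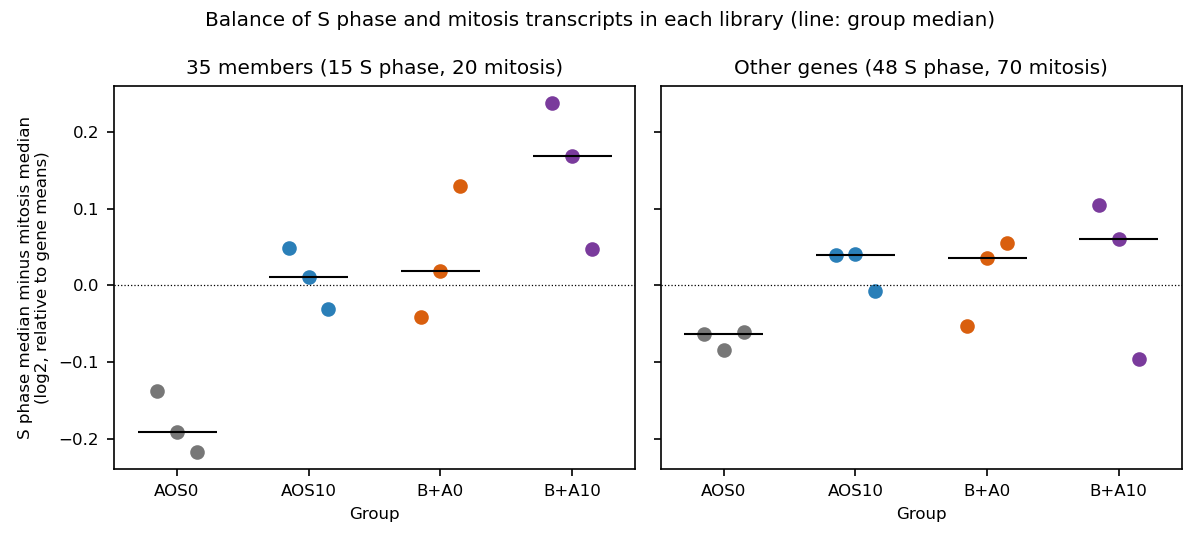
Median S phase deviation minus median mitotic deviation (log2, relative to gene means) in each library, for the 35 genes (left) and for 48 and 70 other genes of S phase and mitosis (right), with lines at group medians. The 3 AOS0 libraries lie below the other 9 on the left, and B+A10 replicate 3 at -0.096 joins them on the right.

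Of 144 further cell cycle genes, 143 were tested, and a few passed. In B+A0 against AOS0, where 3.64% of all tested genes were called, 3 of 143 were called higher and 0 lower. They were the transcription factors E2f3 (0.50, SE 0.093, edgeR adjusted p = 0.0198) and E2f4 (0.43, SE 0.098, 0.0351), and cyclin D1, Ccnd1 (0.43, SE 0.095, 0.0327). E2f3 was at 25.6, 28.4 and 30.5 CPM in AOS0, 31.9, 32.3 and 28.1 in AOS10, 38.8, 38.8 and 41.8 in B+A0, and 43.0, 39.2 and 44.0 in B+A10. All 6 libraries with busulfan were above all 6 without it. E2f3 rose also in B+A10 against AOS0 (0.58, adjusted p = 0.0140), was at 0.45 in B+A10 against AOS10 (0.0902), and rose in the averaged busulfan comparison (0.47, SE 0.065, adjusted p = 0.00306), where it passed whichever library was left out. The call in B+A10 against AOS0 was lost in 4 of the 6 fits that left out 1 library (adjusted p up to 0.0769) and in a fit of only those groups (0.0867). DESeq2 called E2f3 in B+A10 against AOS10 as well (0.00460), where it called 137 of all genes against 20 in edgeR. E2f4, best known as a repressor in resting cells, was at 115, 112 and 99.0 CPM in AOS0 and 135, 145 and 159 in B+A0, without overlap. In the averaged busulfan comparison E2f4 (0.31, adjusted p = 0.0245) and cyclin D3, Ccnd3 (0.37, 0.0454), passed as well, against 6.03% of all tested genes. Of the 12 fits that left out 1 library, 9 lost Ccnd3 (adjusted p up to 0.0987) and 6 lost E2f4 (up to 0.0603), and limma did not call Ccnd3 (0.0846). The call of E2f3 in B+A0 against AOS0 was lost without AOS0 replicate 1 or without B+A0 replicate 2 or 3, with adjusted p up to 0.0966. Those of Ccnd1 and E2f4 were lost in 4 and 5 of the 6 such fits, with adjusted p up to 0.143 and 0.148, and in a fit of only those groups (0.0712 and 0.0562). In the same comparison DESeq2 called 4 of the 143 higher and 1 lower (995 of all genes), and limma 2 higher and 0 lower (455). In the averaged busulfan comparison DESeq2 called 7 higher and 1 lower (1244 of all genes), and limma 2 and 1 (697). For B+A10 against AOS0 DESeq2 called 2 higher and 4 lower (459 of all genes), and limma 1 and 0 (98).

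Cyclin D1 was high in a single group. Ccnd1 was at 284, 229 and 233 CPM in AOS0, 239, 259 and 225 in AOS10, 337, 313 and 352 in B+A0, and 235, 249.9 and 250.4 in B+A10. The B+A0 libraries were above all 9 others. B+A10 against B+A0 was at -0.45 (edgeR adjusted p = 0.254) and the interaction at -0.40 (SE 0.13, 95% interval -0.69 to -0.11, adjusted p = 0.560), neither past the threshold in edgeR. DESeq2 called Ccnd1 in B+A10 against B+A0 (adjusted p = 0.00697), where it called 76 of all genes against 0 in edgeR. Cdc25c, the phosphatase that activates Cdk1 at mitotic entry, fell in B+A10 against AOS0 by 0.73 (SE 0.16, adjusted p = 0.0494). It was at 14.0, 13.2 and 10.8 CPM in AOS0, 9.64, 9.01 and 9.42 in AOS10, 9.10, 9.23 and 10.004 in B+A0, and 8.06, 5.81 and 8.96 in B+A10. As for Bora, the AOS0 libraries were above all 9 others. The Cdc25c call was lost in 5 of the 6 fits that left out 1 library, with adjusted p up to 0.174, and held without B+A10 replicate 3. It was also lost without a filter on low counts (0.0559), in a fit of only those groups (0.196) and with limma (0.0530).

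In the other comparisons 0 of the 143 passed in edgeR. Counts at an unadjusted p under 0.05 are given as higher then lower, with the shares of all tested genes in parentheses. They were 0 and 21 in AOS10 against AOS0 (3.20% and 3.03%), and 1 and 14 in B+A10 against B+A0 (5.89% and 3.93%). In B+A10 against AOS10 they were 6 and 3 (6.07% and 4.16%), and for the interaction 0 and 2 (4.19% and 2.65%). Averaged over AOS they were 1 and 34 (5.53% and 4.13%). DESeq2 called the 2 genes given above (Ccnd1 and E2f3) in these comparisons, and limma called 0. Below 0 were 121 of 143 in AOS10 against AOS0 (median -0.15, against 52.2% of all genes) and 115 of 143 in B+A10 against B+A0 (median -0.12, against 48.2%). The group of kinetochore, spindle and cytokinesis genes was below 0 for 35 of 37 and 33 of 37 in these comparisons. Among all 143 genes, the 2 smallest p values in AOS10 against AOS0 belonged to Racgap1, of the central spindle, and the checkpoint gene Mad2l1. They were at -0.30 (edgeR adjusted p = 0.476) and -0.45 (0.613). In B+A10 against B+A0 the 2 smallest belonged to Ccnd1 and the centrosome kinase Nek2, the latter at -0.35 (edgeR adjusted p = 0.280). In the averaged AOS comparison Nek2 was at -0.26 (adjusted p = 0.257) and the spindle gene Tacc3 at -0.26 (0.294). Gmnn, geminin, the inhibitor of Cdt1, was at -0.42 in B+A10 against AOS10 (adjusted p = 0.275), and securin, Pttg1, had an interaction of -0.29 (0.675). The 6 CDK inhibitors tested were all below 0 in B+A0 against AOS0, with a median of -0.23 and 0 called.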

How the data were processed

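Total RNA from mouse small intestine was sequenced, with 3 libraries in each of 4 groups. The authors deposited expected counts per gene, which were not whole for 8.90 to 9.33% of values (tolerance 1e-06) and were rounded, and a level whose deposited columns state no unit, taken here as FPKM because its ratio to the counts followed the library totals within 0.151%. Per the submitters' processing notes, reads were placed on mm10. Aligner, counting tool, gene models and strandedness: not given in the sources used here. Genes overlapping on opposite strands could therefore share reads. Those passing filterByExpr were scaled by TMM (factors 0.969 to 1.05) and fitted in 1 model over all 12 libraries with edgeR 4.0.16 (R 4.3.3, quasi-likelihood test). Adjusted p is Benjamini-Hochberg over 12329 genes at 0.05. The same script was tested on simulated data. DESeq2 1.42.0, and limma 3.58.1 on log2(FPKM + 1), were alternatives, as were other filters, scalings, a replicate block and leaving out each library. Per-library deviations use log2(CPM + 0.5). Members and lists were chosen with earlier results of these data known. Text names Mki67, Pcna and Top2a, called members, the 3 members of smallest p per comparison, and called or the 2 smallest-p other genes. Transcript lengths were implied by counts and FPKM, and the length check and averaged comparisons were added after seeing the data. Coordinates and promoters are from RefSeq GRCm38.p6.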

Additional observations from a re-analysis of the deposited data

How the results depend on the processing

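The count of the 35 genes called in B+A10 against AOS0 was 1 in the reported analysis (Bora). It was 2 (with Ccnb1) with a filter of at least 1 CPM in 3 libraries, 2 with DESeq2, 0 in a fit of only the groups compared, and 0 to 5 without 1 library. For the averaged AOS comparison it was 0, 1 with DESeq2 (Ccnb1) and 0 to 2 without 1 library. For the averaged busulfan comparison it was 1, 2 with DESeq2 (Bora and Rrm2) and 0 to 3 without 1 library, and for B+A0 against AOS0 it was 0 and 0 to 2 without 1 library. Replicate numbers do not pair libraries: correlations of same-numbered libraries were -0.21 to 0.21, and 2 of 18 exceeded 0.1. With the replicate number as a block, 0 of the 35 were called in B+A10 against AOS0 and 0 in the averaged busulfan comparison.

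Reversals between methods concerned values near 0. Those on leaving out 1 library also reached larger values. With every library Mki67 was at -0.14 in B+A10 against AOS0 and at 0.11 in B+A10 against AOS10, and the sign of both depended on a single library. For Mki67 in B+A10 against B+A0 (-0.00029) the value was 0.0074 with DESeq2 size factors, 0.0052 without a filter, 0.0019 with the 1 CPM filter, 0.0028 with the replicate block, 0.012 in the fit of only those groups and 0.0055 with DESeq2. For Pcna there (-0.0030) it was 0.0037 with DESeq2 size factors, 0.00088 without a filter, 0.0072 in the fit of only those groups and 0.0018 with DESeq2. Mki67 in the averaged busulfan comparison was 0.00067 without a filter. Without 1 library, ranges crossing 0 were, for Mki67, -0.30 to 0.15 in B+A10 against B+A0, -0.19 to 0.27 in B+A10 against AOS10, -0.44 to 0.010 in B+A10 against AOS0, -0.048 to 0.44 for the interaction and -0.16 to 0.063 averaged over busulfan. For Pcna they were -0.043 to 0.070 in B+A10 against B+A0, -0.025 to 0.12 in B+A0 against AOS0, -0.12 to 0.021 in AOS10 against AOS0, -0.021 to 0.12 in B+A10 against AOS0, -0.026 to 0.13 for the interaction and -0.059 to 0.014 averaged over AOS. For Top2a they were -0.14 to 0.085 in B+A0 against AOS0, -0.27 to 0.023 in B+A10 against AOS0, -0.26 to 0.040 in B+A10 against B+A0 and -0.0023 to 0.15 averaged over busulfan. The Bora interaction ranged from -0.21 to 0.068. The cause was not tested.

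Over all genes, B+A0 against AOS0 gave 449 calls, 995 with DESeq2, 241 in the fit of only those groups, 193 with the replicate block and 21 to 1099 without 1 library. B+A10 against AOS0 gave 118, and 459, 18, 83 and 12 to 763 likewise. AOS10 against AOS0 gave 0, and 63, 62, 15 and 0 to 13 likewise, with 8 without a filter. B+A10 against B+A0 gave 0, 76 with DESeq2, 4 with the block, 5 without a filter and 0 to 51 without 1 library. B+A10 against AOS10 gave 20, 137 with DESeq2, 0 in the fit of only those groups, 3 with the block, 40 without a filter, 2 with limma and 0 to 61 without 1 library. The interaction gave 0, 16 with DESeq2 and 0 to 1 without 1 library. The averaged AOS comparison gave 0, 92 with DESeq2, 15 with the block and 0 to 102 without 1 library, and the averaged busulfan comparison 743, 1244, 386 and 250 to 1395 likewise. With 3 libraries a group, 26 of the 35 intervals in AOS10 against AOS0 lay within 1.5-fold.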
